A study of Homo sapiens with 8 samples.

Results

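CDKN2A, TERT, RASSF1 and MGMT were examined for methylated DNA and for the origin-associated protein ORCA in U2OS, an osteosarcoma cell line that maintains its telomeres by the telomerase-independent ALT pathway. The 4 genes were chosen by name, as tumour suppressor, DNA repair and telomerase genes known for promoter methylation in cancer, out of 27305 gene symbols in the RefSeq promoter table. Earlier results of these data were known when they were chosen, so their peak counts are not independent of the choice. Each was taken as its hg19 gene body, with ends rounded to 1 kb, plus 5 kb on either side. The windows measured 38 kb for CDKN2A (chromosome 9, 21962000 to 22000000), 53 kb for TERT (chromosome 5, 1248000 to 1301000), 22 kb for RASSF1 (chromosome 3, 50362000 to 50384000) and 311 kb for MGMT (chromosome 10, 131260000 to 131571000). They held 54 of 74497 methylated DNA peaks and 9 ORCA peaks, of which 4 were among the 10666 of the early list, 3 among the 10341 of the mid list and 2 among the 1328 of the late list.

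The study had 8 samples of U2OS cells in 8 groups of 1. ORCA chromatin immunoprecipitation was sequenced from cells synchronized at 3 points of G1 (early, mid, late). Immunoprecipitation of methylated DNA (MeDIP) was done in U2OS cells with no stage in the labels. Each had an input, and the 4 inputs were not analysed here. No group carried a mutation, transgene or drug in its labels, the agents of synchronization were not named there, and all groups are the same cell line. With 1 sample per group there was no test between samples, and the number of reads per sample is not given in the sources used here.

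Methylation of the cytosines in CpG-rich promoters is a common way by which tumour cells keep tumour suppressor genes silent. Methylation inside gene bodies, by contrast, is found at many transcribed genes. MeDIP pulls down DNA fragments that carry several methylated cytosines, so a peak needs both CpG and methylation, and it gives no percentage of methylation. ORCA (LRWD1) binds the origin recognition complex, which loads the replicative helicase onto DNA in G1, and it is known to associate with heterochromatin. The score of a peak is the authors' own, from their peak caller, and served only to order the peaks within a list. It started at 50 in the lists, and a score of 3100 was shared by 5259 MeDIP peaks, with 241 above it.

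The RefSeq starts listed for these genes held more CpG than most starts, and so more positions that can be methylated. The RefSeq promoter table (GRCh38.p14) holds 300 bases per start, 250 before and 50 after it, and lists a start for all 4 genes, with a pair of starts for CDKN2A. The start listed for RASSF1 lies inside the gene, so that the CpG content at its upstream end was not measured here. The 4 sequences printed here are the CDKN2A starts, the MGMT start and the RASSF1 start inside the gene. The spacing of the CDKN2A starts is set against that of the gene's strongest MeDIP peaks below. No MeDIP peak lay within 2 kb of the upstream end of the MGMT body in hg19. The sequences run 5′ to 3′ on the gene's own strand, with each CpG in capitals.

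CDKN2A first start (minus strand of GRCh38 chr9:21995275-21995574): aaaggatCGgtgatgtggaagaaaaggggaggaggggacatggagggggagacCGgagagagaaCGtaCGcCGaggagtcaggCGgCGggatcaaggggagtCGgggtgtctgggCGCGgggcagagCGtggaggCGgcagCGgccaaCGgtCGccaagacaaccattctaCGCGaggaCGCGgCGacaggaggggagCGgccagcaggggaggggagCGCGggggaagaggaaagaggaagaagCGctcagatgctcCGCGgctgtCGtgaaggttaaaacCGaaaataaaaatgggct

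CDKN2A second start (minus strand of GRCh38 chr9:21974808-21975107): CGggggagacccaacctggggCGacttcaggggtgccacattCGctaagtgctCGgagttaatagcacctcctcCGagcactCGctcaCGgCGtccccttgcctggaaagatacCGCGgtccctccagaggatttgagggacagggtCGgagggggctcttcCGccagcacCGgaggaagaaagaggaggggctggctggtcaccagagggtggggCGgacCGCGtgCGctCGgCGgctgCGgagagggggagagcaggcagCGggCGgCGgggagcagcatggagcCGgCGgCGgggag

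RASSF1 start inside the gene (minus strand of GRCh38 chr3:50337401-50337700): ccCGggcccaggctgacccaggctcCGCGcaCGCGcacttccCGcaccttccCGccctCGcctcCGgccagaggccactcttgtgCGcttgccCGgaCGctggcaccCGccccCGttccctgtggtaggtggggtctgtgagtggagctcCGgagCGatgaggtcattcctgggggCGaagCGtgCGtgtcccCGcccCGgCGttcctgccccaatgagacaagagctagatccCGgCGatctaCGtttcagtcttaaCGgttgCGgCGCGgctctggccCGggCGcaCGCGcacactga

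MGMT start (plus strand of GRCh38 chr10:129466991-129467290): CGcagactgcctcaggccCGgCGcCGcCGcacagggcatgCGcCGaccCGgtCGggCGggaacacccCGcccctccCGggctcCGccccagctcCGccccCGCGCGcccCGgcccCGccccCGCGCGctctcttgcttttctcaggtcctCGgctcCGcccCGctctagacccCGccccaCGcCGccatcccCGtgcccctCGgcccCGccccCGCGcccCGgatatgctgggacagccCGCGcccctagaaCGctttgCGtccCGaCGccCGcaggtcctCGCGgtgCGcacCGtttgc

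The MGMT sequence held 45 CpG, and 3.48% of the 35116 starts in the table held as many or more. TERT had 36 CpG (12.7% of starts), RASSF1 33 (17.2%), the first CDKN2A start 28 (26.2%) and the second 26 (30.1%). The median start held 14. The G+C content was 78.7% at MGMT, 77.3% at TERT, 69.7% at RASSF1 and 63.3% and 69.0% at the CDKN2A starts. These sequences are from GRCh38 and the peaks from hg19, and no position was converted between the builds.

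**Figure D1:**
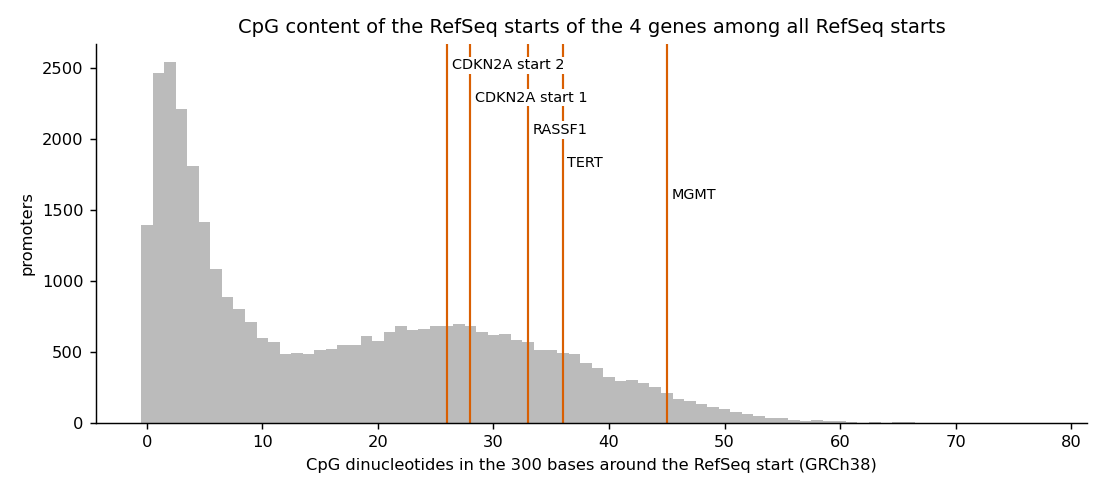
Number of CpG dinucleotides (x axis) in the 300 bases around every RefSeq start, as counts of starts (y axis), with vertical lines for the starts of the 4 genes. All 5 lines lie to the right of the median of 14, and MGMT, at 45, lies farthest.

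At 3 of the 4 genes a MeDIP peak covered the upstream end of the body, and at MGMT none did. The peaks across the upstream ends of the CDKN2A, TERT and RASSF1 bodies each had a score of 3100, a value that 7.38% of the whole MeDIP list reached. Within 2 kb of the upstream end, MeDIP peaks covered 80.2% of the sequence at CDKN2A, 68.6% at TERT and 66.2% at RASSF1. These shares include a weak peak of 571 bp (score 50.55) at CDKN2A and one of 858 bp (score 56.02) at RASSF1. At MGMT, MeDIP peaks covered none of the zone, although its start was the most CpG-rich of those listed. Of 737227 consecutive stretches as long as these start zones, 9.49% held a MeDIP peak and 1.15% one with a score of at least 3100. These stretches are not gene starts: the share over all hg19 gene starts, which differ from other sequence in CpG content, was not computed, so the count of 3 of 4 is a description of these genes. In all, 6 of the 54 MeDIP peaks in the windows (11.1%) had this score: 3 at TERT, 2 at CDKN2A, 1 at RASSF1 and 0 at MGMT.

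**Figure D2:**
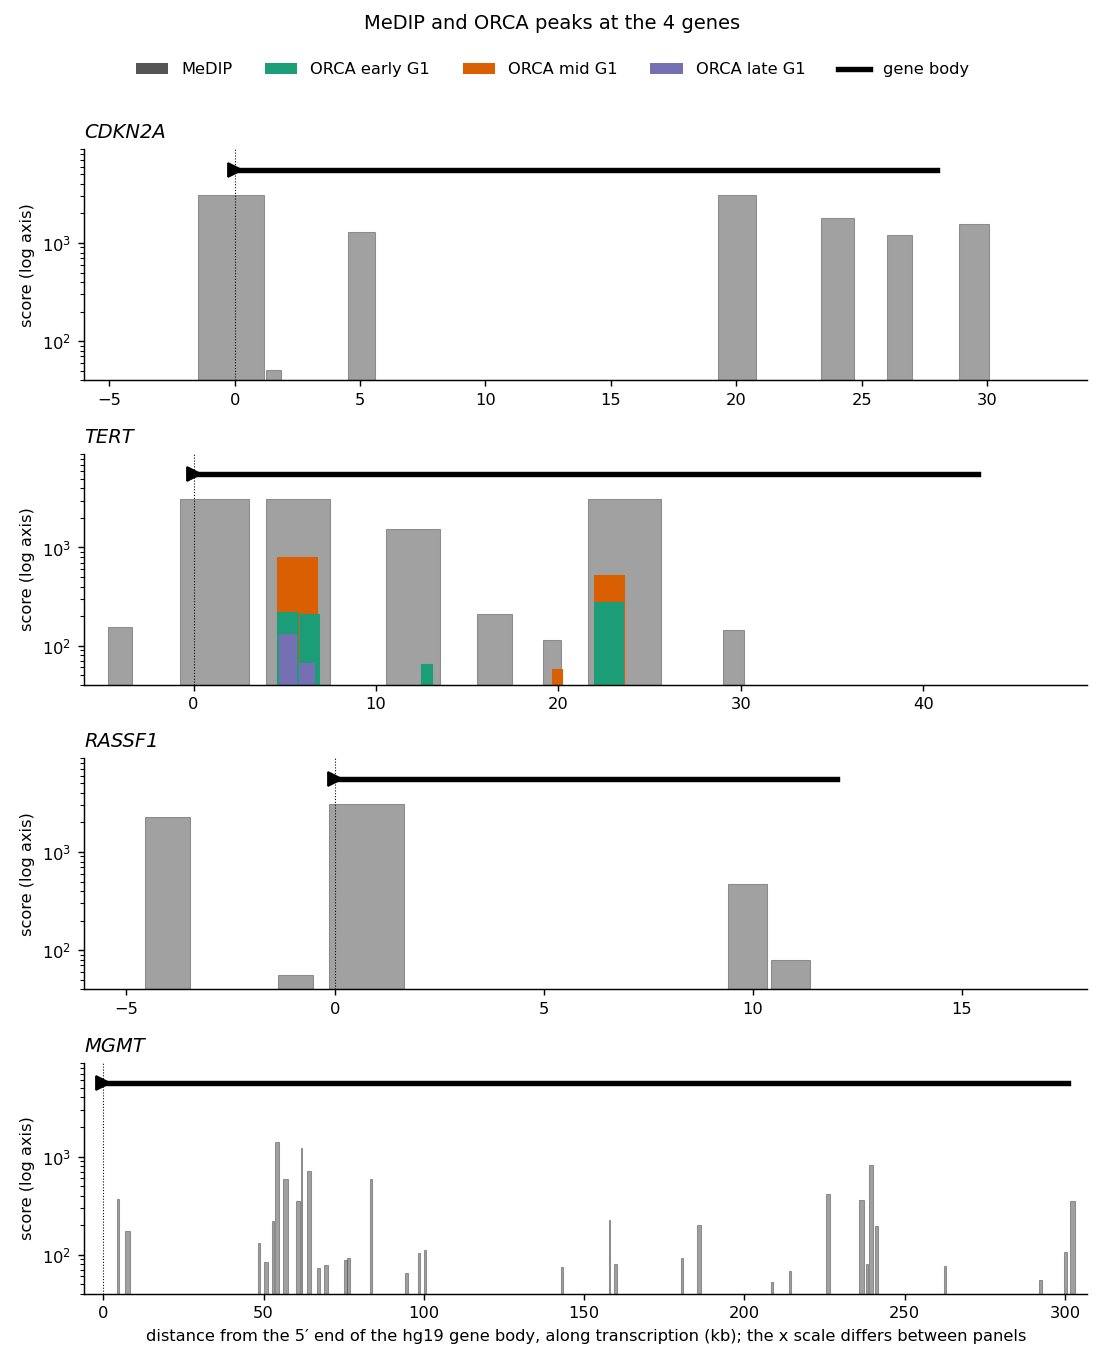
MeDIP peaks (grey) and ORCA peaks (colours by G1 stage) of each gene window by distance from the upstream end of the gene body in kb (x axis, read along transcription), with the height of a bar as the peak's score on a log axis. A bar of score 3100 crosses the dotted line at CDKN2A, TERT and RASSF1, the first MGMT bar begins 4.29 kb inside the gene, and coloured bars occur at TERT and at no other of the 4 genes.

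CDKN2A encodes 2 unrelated tumour suppressors from separate first exons: p14ARF, which starts upstream and stabilises p53, and p16INK4a, which starts inside the gene and inhibits the kinases CDK4 and CDK6. Its window held 7 MeDIP peaks. Across all 77598 consecutive stretches of the same length on chromosomes 1 to 22 and X, 4.10% held at least as many, and the median stretch held 0. The peaks stood out from their surroundings: the next 38 kb upstream held 2 MeDIP peaks and the next 38 kb downstream 0, and the 1 Mb centred on the gene held 12.

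The peak across the upstream end of CDKN2A ran from 21993808 to 21996443, was 2636 bp wide and reached 1.19 kb into the gene. RefSeq lists the antisense RNA gene CDKN2B-AS1 across this end on the opposite strand, and the peak was not assigned to either gene. A weak peak from 21993164 to 21993734, with a score of 50.55, near the lowest in the list, followed 73 bp downstream. The next began 4.51 kb inside the gene, from 21989405 to 21990485, with a score of 1283.81.

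After 13683 bp with no MeDIP peak, the other peak with a score of 3100 ran from 21974202 to 21975721 and was 1520 bp wide. It lay 19.28 to 20.80 kb downstream of the upstream end. In GRCh38, the second RefSeq start, whose sequence is printed above and from which p16INK4a is made, lies 20467 bp downstream of the first. The midpoints of the pair of strongest peaks were 20164 bp apart in hg19. Their spacing was thus close to that of the pair of starts, each measured within its own build.

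Toward the 3′ end of CDKN2A, 3 further peaks had scores over 1000. They ran from 21970304 to 21971619 (score 1801.98), from 21968000 to 21968984 (1201.29) and from 21964907 to 21966102 (1564.99), the last of them beyond the end of the body. Among the 4 genes CDKN2A had the largest share of high scores, with 6 of its 7 peaks above the list's median of 187.4 and a median score of 1565.

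No ORCA peak of any stage lay in the CDKN2A window or in the 1 Mb around the gene. The nearest were 4080 kb away in the early list, 2570 kb in the mid list and 7880 kb in the late list, all on the upstream side. An empty window is the usual case: of the stretches of 38 kb, ORCA peaks were found in 8.11% in the early, 7.70% in the mid and 1.24% in the late list.

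TERT encodes the catalytic subunit of telomerase, the enzyme that ALT cells do without. Its window held 8 MeDIP peaks, and 5.02% of 55629 stretches of 53 kb held at least as many. MeDIP peaks covered 37.0% of the TERT window, against 24.5% at CDKN2A, 25.3% at RASSF1 and 10.2% at MGMT. The peaks were also wide: their median width was 2457.5 bp, and that of the whole list 832 bp. TERT lies near the end of the short arm of chromosome 5, and its surroundings were as rich: 9 MeDIP peaks in the next 53 kb upstream, 12 in the next 53 kb downstream and 216 in the 1 Mb around it, against 12 around CDKN2A, 56 around RASSF1 and 82 around MGMT.

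The peak across the upstream end of TERT ran from 1292937 to 1296744, a width of 3808 bp, from 0.74 kb before that end to 3.06 kb inside. The upstream end of the body and the first part of the gene thus lay under a single peak. The place of the promoter itself was not measured, because the body end is rounded to 1 kb and the listed start is from GRCh38. Inside the gene it was followed after 905 bp by a peak from 1288512 to 1292031 (3520 bp, score 3100) and, farther on, by peaks from 1282486 to 1285449 (2964 bp, score 1533.41) and from 1270401 to 1274367 (3967 bp, score 3100). The other 3 peaks inside the gene were weaker and ran from 1278539 to 1280489 (score 211.54), from 1275851 to 1276831 (114.23) and from 1265837 to 1266954 (143.89). Upstream of the gene there was 1 peak, from 1299394 to 1300685 (156.37). The part of the body from 30.16 kb after the upstream end to its 3′ end, and the 5 kb beyond, held no MeDIP peak. The peaks inside the gene thus lay in the first 30.16 kb of its 43 kb.

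TERT alone among the 4 genes held ORCA peaks. The early list had 4, the mid list 3 and the late list 2, and 0.962%, 1.48% and 0.381% of stretches of 53 kb held at least as many. Any early ORCA peak was found in 10.4% of these stretches, any mid peak in 9.87% and any late peak in 1.63%. The flanks held fewer. The next 53 kb upstream held 0 early, 2 mid and 0 late peaks and the next 53 kb downstream 1, 1 and 0. The 1 Mb around TERT held 34 early, 55 mid and 7 late peaks, so ORCA peaks were also frequent in its wider surroundings. The 1 Mb around RASSF1 held 5, 6 and 0, and that around MGMT 0, 1 and 0.

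Merged over the stages, the ORCA peaks made 4 sites, and 1 of them was present at all 3 stages. This site lay from 1289125 to 1291421, between 4.58 and 6.88 kb inside the gene. In early G1 it consisted of a pair of peaks, from 1289125 to 1290157 (score 208.64) and from 1290280 to 1291421 (220.84), with 122 bp between them. In mid G1 it was 1 peak from 1289241 to 1291403 with a score of 796.36, and 0.841% of the mid list had a score as high.

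In late G1 the site was again a pair, from 1289415 to 1290216 (score 67.2) and from 1290376 to 1291295 (130.11), separated by 159 bp. The early and late gaps overlapped each other, and the late peaks lay wholly inside the mid peak. Within their lists the early peaks were among the top 4.04% and 3.59% by score, and the late peaks among the top 53.7% and 20.3%. Scores of different lists cannot be set against each other, and the late list is also shorter, with the early list 8.03 times and the mid list 7.79 times its length. Nor can a pair in one list be compared with a single peak in another, because the settings of the peak caller are unknown. Whether ORCA binding at this site changed its form between stages was not tested.

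A further site, from 1272415 to 1274045 and about 22 kb inside the gene, was present in early and mid G1 and had no late peak. The early peak ran from 1272438 to 1274027 (score 278.61, top 2.46% of its list) and the mid peak from 1272415 to 1274045 (527.28, top 1.35%), and the mid peak held the whole early peak. The remaining sites were found in a single list each: an early peak from 1282911 to 1283558 (score 65.61) and a mid peak from 1275791 to 1276371 (58.08). They ranked in the top 46.3% and 73.8% of their lists, below the peaks at the other sites in the same lists.

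Every ORCA peak at TERT overlapped a MeDIP peak, in a window of which MeDIP peaks covered 37.0%. The share of all ORCA peaks that overlap a MeDIP peak was not computed here, so this is a description of TERT alone. A MeDIP peak covered 100% of 3 of the 4 sites and 89.7% of the mid peak starting at 1275791. Of the 54 MeDIP peaks in the windows, 3 shared bases with early ORCA peaks, 3 with mid and 1 with late ones, 4 peaks in all, and all 4 were at TERT. Across the whole MeDIP list the share was 4.60% for early, 6.03% for mid and 0.901% for late ORCA peaks, and counts of 3, 3 and 1 are too small to set the 4 genes apart from it.

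The strong MeDIP peak at the TERT start carried no ORCA peak. The nearest ended 1515 bp away in the early, 1533 bp in the mid and 1641 bp in the late list, inside the gene. The MeDIP peaks with the recurrent ORCA site and with the site of early and mid G1 had the same score of 3100 as the peak at the start. Because 5259 MeDIP peaks shared this score, the tie does not show equal enrichment. The introns of TERT are known to hold tandem repeats, and the position of the peaks relative to these was not examined.

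**Figure D3:**
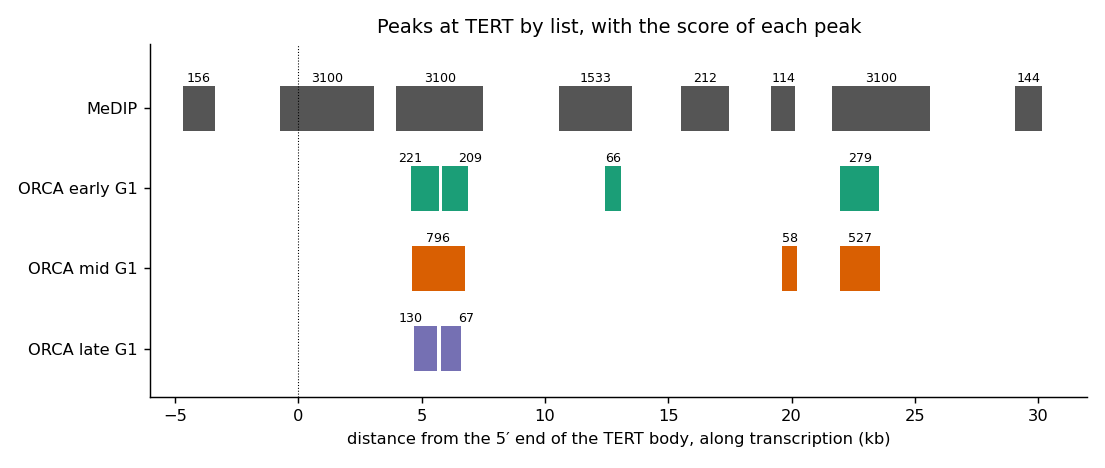
Peaks at TERT in each of the 4 lists (rows) by distance from the upstream end of the body in kb (x axis), with the score of each peak above its bar. ORCA bars of all 3 stages line up 4.58 to 6.88 kb inside the gene under a MeDIP bar of score 3100, and no ORCA bar lies under the MeDIP bar that crosses the start.

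RASSF1 encodes Ras-association domain proteins. Its longer product RASSF1A, a microtubule-binding tumour suppressor, starts at the upstream end, and RASSF1C starts inside the gene. The window held 5 MeDIP peaks, and 3.46% of 134052 stretches of 22 kb held at least as many. The next 22 kb upstream held 1 and the next 22 kb downstream 4. In this gene-dense part of chromosome 3, RefSeq lists ZMYND10 directly upstream and TUSC2 directly downstream of RASSF1.

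The peak across the upstream end of RASSF1 ran from 50377359 to 50379147 (1789 bp) and had a score of 3100. Upstream of it were a weak peak from 50379516 to 50380373 (score 56.02) and a strong one from 50382466 to 50383534 (2280.01), outside RASSF1 on the side of ZMYND10. At the 3′ end were peaks from 50368661 to 50369594 (471.4) and from 50367635 to 50368558 (80.4), 102 bp apart.

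Between the upstream peak and the 3′ peaks lay 7764 bp with no MeDIP peak, from 1.64 to 9.40 kb inside RASSF1. The start that RefSeq lists, with its 33 CpG, lies 3386 bp inside the gene in GRCh38. By that distance it falls in the stretch without a peak, while the upstream end lies under the strongest peak of the window. RASSF1 and CDKN2A thus differed: CDKN2A had a strong peak at about the distance of each of its starts, and RASSF1 had one at the upstream end and none at the distance of the start inside the gene. Because the ends of the bodies are rounded, these distances are good to about 1 kb.

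No ORCA peak lay in the RASSF1 window. The nearest early peak, 12.6 kb downstream of the window, had a score of 58.26, and the nearest mid peak, 12.4 kb downstream, had 60.98. These overlap each other, from 50348979 to 50349359 and from 50349136 to 50349638. The nearest late peak was 635 kb away. Of the stretches of 22 kb, 5.32% held an early, 5.06% a mid and 0.785% a late peak.

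MGMT encodes the methyltransferase that removes alkyl groups from guanine and so repairs the damage done by drugs such as temozolomide, and its promoter methylation is a clinical marker in glioma. No MeDIP peak lay within 2 kb of its start. The stretch without a peak was 45.57 kb long. It reached from 41.28 kb before the start, where a peak of score 50.35 ended at 131223719, to 4.29 kb after it. The list says only that no peak was found there, since mapped depth is not given in the sources used here and the inputs were not analysed here.

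The MGMT body, in contrast, held many peaks. The window had 34 MeDIP peaks, and 5.94% of 9456 stretches of 311 kb held at least as many. The next 311 kb downstream held 40, and the next 311 kb upstream 7. By median score the peaks were weaker than at the other 3 genes: 121.4, against 1565 at CDKN2A, 872.5 at TERT and 471.4 at RASSF1. Of the 34 peaks, 15 were at or above the list's median of 187.4 and 14 were under 100. Low scores are common in the whole list, where 69.2% of peaks scored at least 103.05 and 73.4% at least 91.82. The median width of the MGMT peaks was 892.5 bp, close to the 832 bp of the whole list.

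The MGMT peaks came in groups. Of the 6 parts of 50 kb along the body, that from 50 to 100 kb held 14 peaks and was covered to 25.4%, and that from 200 to 250 kb held 7 and was covered to 14.3%. The other 4 parts held 2 to 4 peaks each. The longest stretches with no peak inside the gene were 42.00 kb, from 100.79 to 142.79 kb, and 40.01 kb, from 8.32 to 48.33 kb after the start.

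The highest score, 1418.6, belonged to the peak from 131318639 to 131319723, which lay 53.64 kb inside MGMT. The next 4 by score ran from 131326583 to 131326991 (1233.24), from 131503809 to 131505145 (816.67), from 131328607 to 131329743 (712.66) and from 131348214 to 131348778 (595.32). Of these 5 peaks, all but the one at 131503809 fell in the part from 50 to 100 kb. The first peak after the start ran from 131269288 to 131269930 (370.59), and the widest, of 1799 bp, was the last, from 131566470 to 131568268 (349.17), just beyond the 3′ end.

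No ORCA peak lay in the MGMT window, although it is the longest of the 4. Of stretches of 311 kb, 32.9% held an early, 32.5% a mid and 6.28% a late peak. The nearest was a mid peak 238 kb upstream with a score of 189.67. The nearest early and late peaks were 997 and 946 kb away. MGMT, the longest gene, thus had the most MeDIP peaks of the 4, the smallest share of its window covered by them and no ORCA peak of any stage.

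**Figure D4:**
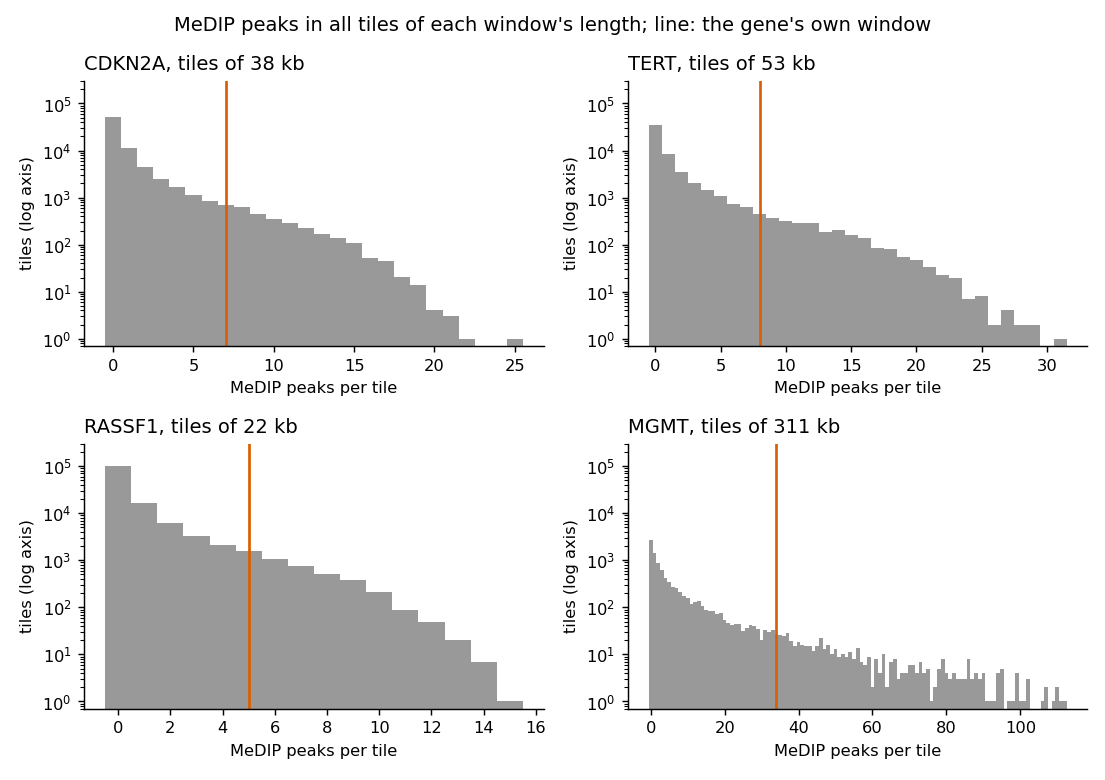
Number of MeDIP peaks (x axis) in all consecutive stretches of each window's length on chromosomes 1 to 22 and X, as counts of stretches on a log axis (y axis), with a vertical line at the count of the gene's own window. The lines stand at 7, 8, 5 and 34 peaks, to the right of most stretches, and 4.10%, 5.02%, 3.46% and 5.94% of stretches lie at or beyond them. The stretches were not matched to genes or CpG content. Leaving out those in parts of over 1 Mb with no peak, a choice not planned in advance, gave 4.8%, 5.89%, 4.05% and 7.12%.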

How the data were processed

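ORCA ChIP-seq at 3 stages of G1 and MeDIP-seq were done in U2OS cells, with 1 sample per group. The submitters' processing notes name Trimmomatic, Bowtie 0.12.7 and the builds GRCh37 and hg19 (2 names of 1 assembly). The authors deposited 1 peak list per immunoprecipitated sample with a score per peak. The names of the peaks are of the MACS family, while its version, settings and control are not given in the sources used here. In its name, the late list is labelled with another caller number than the other ORCA lists, so list lengths are not comparable as amounts of binding.

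Peaks on chromosomes 1 to 22 and X were kept, with starts counted from 1. A peak belonged to a window if it shared at least 1 bp with it. Start zones reached 2 kb to either side of the upstream end of the rounded body. Strand, neighbouring gene names and promoter sequences came from RefSeq (GRCh38.p14), with distances measured within that build. Stretches of equal length were laid end to end between the first and last peak of a chromosome, unsequenced parts included. Every peak is named for windows of at most 12, and otherwise the first, last, widest, 5 highest and any at the start. The members and lists were chosen with earlier results of these data known. Counts of the other genes planned for an hg19 annotation were not run, since none was used here. The overlap code was tested on simulated peaks. Python 3.11.15, numpy 2.4.6, pandas 2.3.3 and matplotlib 3.10.9 were used.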

Additional observations from a re-analysis of the deposited data

How the results depend on the processing

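Of 83 alternatives over 27 counts and shares, 73 stayed within 1.5 times the reported value and 10 did not. The 73 include counts of 0: ORCA peaks at CDKN2A, RASSF1 and MGMT, and MeDIP peaks at the MGMT start. Most settings for these counts could only keep them at 0, so 73 is not a measure of stability. With MeDIP peaks at or above the list's median score alone, the windows held 5 peaks at TERT, 3 at RASSF1 and 15 at MGMT, and the start zones 1 at CDKN2A and 1 at RASSF1; late ORCA peaks at TERT, cut in the same way, came to 1. Without flanks RASSF1 held 3 MeDIP peaks. With zones of 1 kb CDKN2A had 1 peak at its start, and with zones of 5 kb TERT had 3 and MGMT 1, the latter beginning 4.29 kb inside the gene. The 3 starts with a peak kept at least 1 under each of these settings. This had to be so, because a peak of score 3100 crosses each of these upstream ends and none of the settings could remove it. The windows of CDKN2A, RASSF1 and MGMT also held no ORCA peak with flanks of 10 kb, the only setting that could have added peaks to them. Cutting the early and mid lists to the late length, chosen after seeing the data, left 3 early and 2 mid peaks at TERT. No paired analysis was possible because each group had 1 sample. Without replicates, inputs or depth, the error of a count of peaks is unknown.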
